A study of Mus musculus with 9 samples.

Results

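GL261, a mouse glioblastoma line, was compared between a penta-culture grown flat on a petri dish (2D culture) and tumours grown in the brains of mice. The comparison uses 6 of the 9 libraries of the series, 3 of 2D culture and 3 of tumours, picked by their labels and by no measured value. In each library bulk RNA was sequenced and 1 value per gene was deposited, a normalized count. The table holds 20778 gene symbols, of which 3502 were at 0 throughout these 6 libraries. Tests were run on the 13476 genes whose average over the 6 was 10 or more. In all groups the GL261 cells carried the red fluorescent label mCherry. For the tumours, 50000 of these cells were injected into the striatum of male mice of the C57BL/6 strain, 7 weeks old and 5 in number, and the brains were taken on day 14. The labels call these libraries whole tumor cells. For the 2D culture, GL261 was seeded at 1000000 cells per ml with primary astrocytes, microglia, pericytes and endothelial cells at a ratio of 1, 1, 2, 0.1 and 0.1, an order the labels do not spell out. The primary cells came from brains of male C57BL/6 mice 6 to 10 weeks old and were separated on magnetic beads, with the cells left over used as astrocytes. The other 3 libraries are the same penta-culture in a fibrin gel (3D bioink), which was digested for 3 h in collagenase II (600 U per ml) before RNA isolation, a step the labels do not record for the 2D culture. The labels do not say how long the cultures grew, whether the 3 libraries of a culture were separate dishes, or whether each tumour library was 1 mouse, so the p-values below reflect only how far these libraries scattered, possibly for technical reasons.

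A glioblastoma in the brain is a mixture of malignant cells, resident microglia, macrophages that enter from the blood, astrocytes, vessels and a few lymphocytes, and in mouse models myeloid cells make up much of what is not tumour. Myeloid cells bring complement, lysosomal proteases, cytokines and antigen presentation. Cells spread on a stiff dish form focal adhesions and actin stress fibres, divide where nutrients allow, and make and cross-link their own matrix. Serum response factor (SRF) is known for a part in genes of both kinds of programme, early response and cytoskeleton: bound at a short DNA element called the CArG box, it drives immediate early genes such as Fos with one set of partners and genes of the contractile cytoskeleton with another.

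The depth of reads behind each value is unknown, because the deposited values are already normalized and rounded. They sum to between 15572800 and 15711632 in the 2D libraries and to between 16320090 and 16388074 in the tumours. The 3 libraries of a group lay close together, with a correlation across genes of log2 values of 0.968 to 0.970 in 2D culture and 0.937 to 0.941 in tumours, against 0.774 to 0.780 between 2D culture and tumours. Genes are not independent replicates, so these correlations describe the libraries only. For genes with a group mean of at least 1000, the median coefficient of variation was 3.78% in 2D culture and 5.03% in tumours; for means of 10 to 100 it was 26% and 36.6%, so low genes carry the larger error.

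More than 1 gene in 2 differed. A gene is said to be called, to rise or to fall where its adjusted p was below 0.05 in a limma fit of log2(value + 1) over all tested genes, and every log2 difference is 2D culture minus tumours on that scale. Where values of 3 libraries are given for each group with no name beside them, the tumours come first and the 2D culture second. Of 13476 genes, 7894 (58.6%) were called, 3972 (29.5%) higher and 3922 (29.1%) lower in 2D culture. The counts given for gene lists below are to be read beside these shares. For 65.2% of genes every library of one group lay above every library of the other. Large differences leaned to the tumour side: 1206 genes (8.95%) were called and at least 2-fold higher in 2D culture and 2081 (15.4%) at least 2-fold lower. That lean went after quantile normalization, with 1753 higher and 1706 lower, a step that moved the median log2 difference of all genes from 0.00 to 0.17. Among genes with a mean of at least 10 in the lower group, 42 were at least 10-fold higher and 248 at least 10-fold lower in 2D culture. Listed at 0 in all 3 2D libraries were 130 tested genes, 48 of them with a tumour mean of at least 100. Listed at 0 in all 3 tumours were 31, of which 4 had a 2D mean of at least 100. Genes at or near 0 in one group reached the mean of 10 only through the other, so their direction was fixed by being tested. On the other side, for 2961 genes (22%) the 95% interval of the log2 difference lay wholly between -0.5 and 0.5.

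The largest rises measured against a tumour mean of at least 10 were in genes of several kinds. Fbln2, a matrix glycoprotein of elastic fibres and basement membranes, stood at 4, 8 and 20 in the tumours and 8348, 8535 and 8932 in 2D culture (log2 difference 9.78, SE 0.45, adjusted p = 9.57e-07). Grb10, an adaptor that restrains insulin receptor signalling (chromosome 11, 11930499 to 12037428 in GRCm38.p6), stood at 25, 28 and 5 in tumours and 1280, 1401 and 1276 in 2D culture (log2 difference 6.32, SE 0.55, adjusted p = 3.22e-05; 5.59 without tumour replicate 3). Gsn encodes gelsolin, which severs actin filaments, and its values were 140, 41 and 179 in tumours and 6436, 5508 and 5375 in 2D culture (log2 difference 5.82, SE 0.48, adjusted p = 2.31e-05; 5.17 without tumour replicate 2). In all 3 genes the groups were far apart, and for Grb10 and Gsn the size of the rise moved with a single tumour library. The sodium bicarbonate cotransporter Slc4a4 went from 17, 2 and 17 to 432, 383 and 495 (log2 difference 5.46, SE 0.67, adjusted p = 0.000219; 4.60 without tumour replicate 2). The rule also took genes in which the tumour libraries disagreed among themselves. Ppp4c, a phosphatase subunit, was at 442, 0 and 0 in the tumours and 484, 594 and 782 in 2D culture, and its call (adjusted p = 0.0355) was lost in 5 of the 6 fits that left out 1 library (adjusted p up to 0.118) and kept without tumour replicate 1 (log2 difference 9.25). The tight junction gene Cldn1 was at 0, 32 and 0 and 94, 107 and 119, with a log2 difference of 5.06 (adjusted p = 0.01; 4.22 without tumour replicate 1 or tumour replicate 3, 6.74 without tumour replicate 2).

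The largest falls with a 2D mean of at least 10 were mostly in genes of myeloid cells. Apoe, the lipid carrier of microglia, macrophages and astrocytes (chromosome 7, 19696244 to 19701310), stood at 74332, 73036 and 71885 in the tumours and 216, 204 and 191 in 2D culture (log2 difference -8.48, SE 0.05, adjusted p = 1.29e-10). C4b, of complement, went from 53738, 52692 and 51122 to 139, 155 and 211 (log2 difference -8.30, SE 0.14, adjusted p = 6.42e-09); it has a near-identical copy, so its values are uncertain. Itgb2, the beta chain of leukocyte integrins, went from 7234, 7497 and 7510 to 24, 26 and 24, and Mpeg1, a pore-forming protein of macrophages, from 4537, 4243 and 4137 to 10, 12 and 12 (log2 differences -8.18 and -8.45). Il1rn, the antagonist of interleukin 1, and Csf1r, the receptor on which microglia and macrophages depend, fell as well (log2 differences -9.33 and -8.53). Gm4070, a predicted interferon-inducible GTPase, was lower as well, at 2626, 3563 and 2912 in tumours and 26, 20 and 0 in 2D culture (log2 difference -8.51; -9.36 without 2D replicate 1, -9.18 without 2D replicate 2, -6.98 without 2D replicate 3). Fosb, an immediate early gene, was among the 10 largest falls too and is described with its family below.

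The 10 most abundant genes held within 0.5 were the chaperones Hsp90ab1 and Hspa8, the translation factors Eef1a1 and Eef2, the ribosomal Rplp0, the cytoskeletal Actg1 and Myh9, the glycolytic Pkm and Eno1, and the predicted gene Gm20594. Gm20594 was called lower without tumour replicate 1 and with 10 added before log2 (adjusted p = 0.00717 and 0.0461), and Rplp0 lost its call after quantile normalization (adjusted p = 0.0928). Hsp90ab1 stood at 149052, 166389 and 168789 in tumours and 158007, 163409 and 160241 in 2D culture, with a 95% interval of the log2 difference from -0.12 to 0.11. Myh9, the heavy chain of non-muscle myosin, stood at 36175, 37040 and 38256 and 37837, 38090 and 39418, with an interval from -0.03 to 0.13, and was called higher after quantile normalization (log2 difference 0.18) and at equal sums (0.11). Within the band does not mean equal: Pkm was called higher (log2 difference 0.42, SE 0.03, adjusted p = 1.16e-05) and Eef2 lower (log2 difference -0.31, SE 0.03, adjusted p = 0.000127). Eef1a1, called lower at -0.14, was at 0.02 after quantile normalization and not called (adjusted p = 0.671), and without 1 library its adjusted p reached 0.068.

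**Figure D1:**
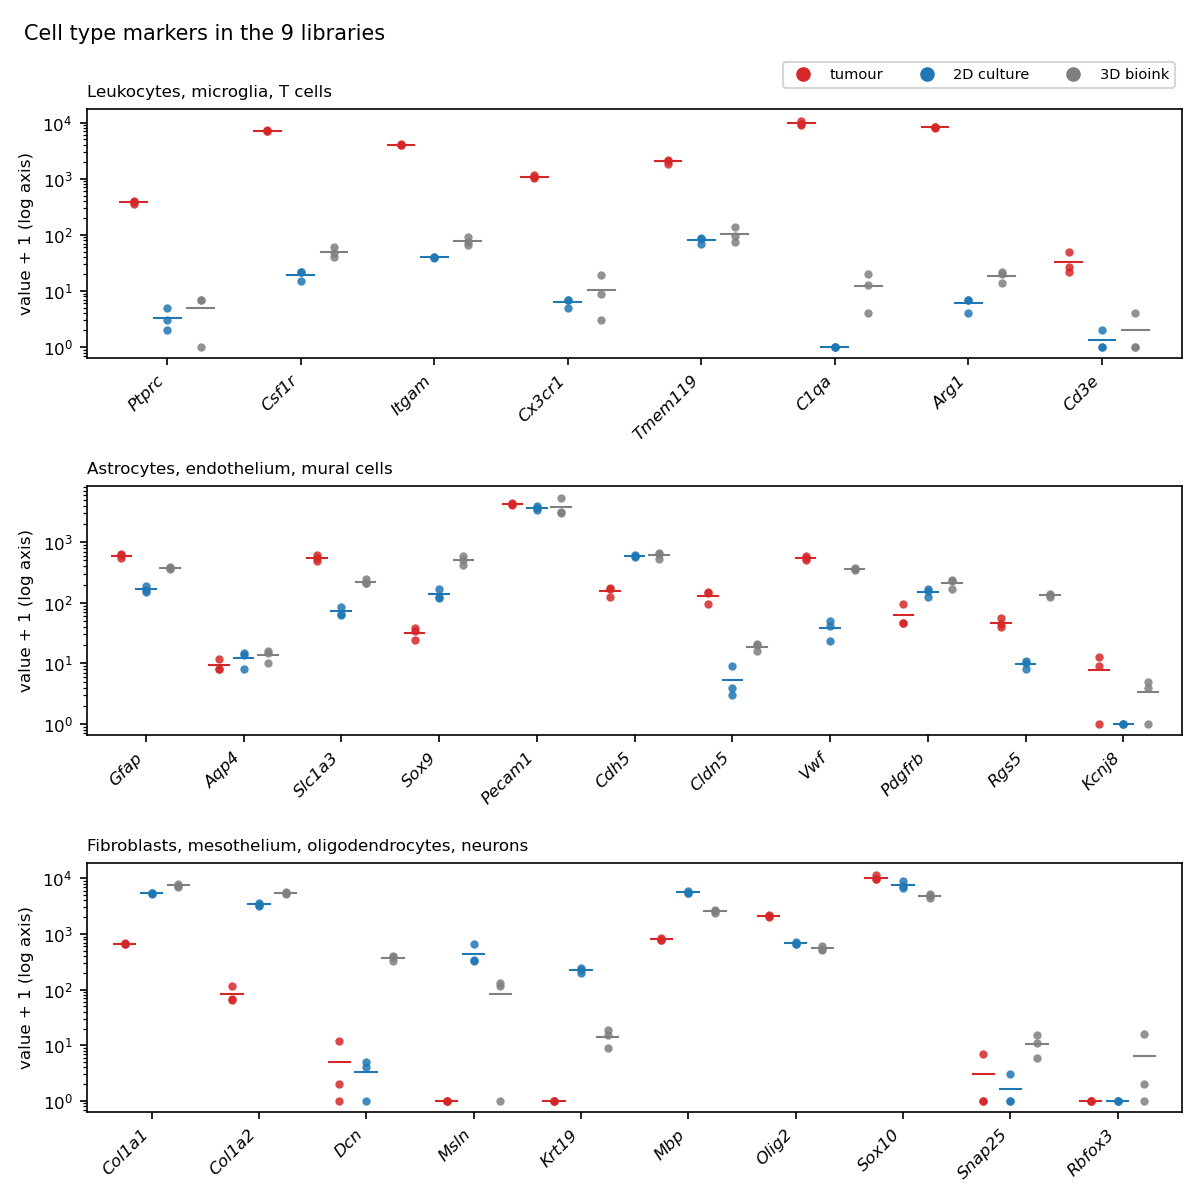
Markers of the cell types that the tumour or the culture could hold, 1 point per library and a line at each group's mean, as deposited value + 1 on a log axis. Ptprc, Csf1r, Cx3cr1, C1qa and Arg1 lie far higher in tumours than in 2D culture, where C1qa is at 0, whereas the ranges of Pecam1 in the bioink and in both other groups overlap.

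The markers of the seeded cells were checked first. Microglia were seeded, but their genes were far lower in the 2D libraries than in tumours. Of 17 microglia markers tested, 16 fell, none rose and P2ry12 did not pass (it was called lower without tumour replicate 1), with a median log2 difference of -6.67, or -4.66 without the 2 members at 0. The summed level of the list was 981 to 1087 in the 2D libraries and 54925 to 58868 in tumours. C1qa, a chain of complement C1q that microglia make, was at 10750, 9620 and 9084 in tumours and was listed at 0 in each 2D library. Cx3cr1, the fractalkine receptor, stood at 1028, 1051 and 1174 in tumours and 6, 6 and 4 in 2D culture (log2 difference -7.44, SE 0.23, adjusted p = 1.15e-07). Ptprc, which encodes the leukocyte antigen CD45, stood at 393, 361 and 378 and 1, 2 and 4 (log2 difference -6.93, SE 0.40, adjusted p = 3.05e-06). Olfml3, another microglia marker, stood at 234, 232 and 271 in 2D culture. The labelled microglia of the 2D culture are therefore named here by the label only. In bulk RNA, fewer cells of a type and less RNA per cell cannot be told apart, here and in all that follows.

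Markers of blood-derived immune cells, which the labels do not name among the seeded cells, followed the same pattern. Of 15 tested markers of infiltrating macrophages and monocytes, 14 fell and 1 rose, with a median of -5.92 (-3.67 without the 3 members at 0, -3.56 with 10 added before log2) and a summed level of 6799 to 7921 in 2D culture and 41007 to 42175 in tumours. Adgre1, which encodes the macrophage antigen F4/80, was at 0 in the 2D libraries and at 1148, 1139 and 1095 in tumours; Ly6c2 and F13a1 were at 0 in 2D culture as well. The member that rose, Vcan, encodes versican, a matrix proteoglycan that fibroblasts and glioma cells also make. It went from 587, 615 and 524 to 1390, 1342 and 1227 (log2 difference 1.20, SE 0.08, adjusted p = 9.17e-06). Of 9 tested T and NK cell markers 8 fell (2 to 9 over the alternatives, which also change how many are tested). Among them, Cd3d lost its call in several alternatives, such as quantile normalization and equal sums (adjusted p = 0.468 and 0.0582). Of 6 dendritic cell markers 5 fell (3 after quantile normalization or without tumour replicate 2), and of 2 neutrophil and 2 B cell markers 1 each fell (for B cells none without any 1 of the tumour libraries). The T cell receptor chain gene Cd3e was at 26, 21 and 49 in tumours and 0, 1 and 0 in 2D culture (log2 difference -4.62, SE 0.64, adjusted p = 0.000463). The T and NK list summed to 87 to 105 in 2D culture and 659 to 777 in tumours. Members near 0 in 2D culture, such as Cd3e, Cd2 and Gzmb, were tested only because of their tumour values. Their direction was thus fixed by being tested. The same holds for any member near 0 there in the dendritic, neutrophil and B cell lists.

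Endothelial cells and pericytes were seeded too, and their markers split. Of 12 endothelial markers, 8 fell and 1 rose (median -1.20, -0.72 after quantile normalization, -1.86 with no filter on low values, summed level 4969 to 5311 in 2D culture and 6781 to 7150 in tumours). Cdh5, the cadherin of endothelial junctions, rose from 172, 170 and 124 to 574, 613 and 590 (log2 difference 1.94, SE 0.15, adjusted p = 1.51e-05). Cldn5, the claudin that seals brain endothelium, fell from 147, 145 and 93 to 8, 2 and 3 (log2 difference -4.73, SE 0.50, adjusted p = 9.46e-05). Vwf, the clotting factor stored in endothelial cells, went from 554, 600 and 499 to 50, 41 and 22 (log2 difference -3.91, SE 0.30, adjusted p = 1.43e-05). Pecam1, another endothelial surface gene that leukocytes share, stood at 4101, 4210 and 4477 in tumours and 3621, 3879 and 3451 in 2D culture, a small fall (log2 difference -0.22, SE 0.06, adjusted p = 0.00951) that did not pass with all 9 libraries in the fit (adjusted p = 0.329). The endothelial transcription factor gene Erg was at 0 in all 6 libraries. P-selectin, encoded by Selp and stored in endothelium and platelets, was at 26, 32 and 12 in tumours and 3, 6 and 3 in 2D culture (log2 difference -2.23, SE 0.57, adjusted p = 0.0108).

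Of 8 pericyte and mural markers 6 fell and 2 rose (median -1.59, -0.90 over the members with a mean of at least 50, -0.91 with no filter on low values, or -0.91 without the member at 0; summed level 13639 to 13848 in 2D culture and 27209 to 29081 in tumours). Pdgfrb, the receptor that keeps pericytes on vessels, rose from 95, 46 and 46 to 153, 125 and 168 (log2 difference 1.32, SE 0.32, adjusted p = 0.00845). Anpep, an aminopeptidase of pericytes and myeloid cells, fell from 2964, 3054 and 2646 to 66, 71 and 82 (log2 difference -5.29, SE 0.11, adjusted p = 1.76e-08). Kcnj8, a potassium channel of brain pericytes, and Vtn, vitronectin, were at 0 in all 3 2D libraries. Notch3, a receptor of mural cells, was the other that rose, from 91, 45 and 49 to 100, 153 and 127 (log2 difference 1.08, SE 0.32, adjusted p = 0.0211), a call lost in 4 of the 6 fits that left out 1 library, all but those without 2D replicate 1 or tumour replicate 1 (adjusted p up to 0.0793).

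Astrocyte markers did not move as one. Of 12 tested, 7 rose and 3 fell (median 0.27, summed level 10014 to 10407 in 2D culture and 8165 to 8769 in tumours). The glial transcription factor Sox9 rose from 38, 23 and 33 to 125, 121 and 166 (log2 difference 2.11, SE 0.28, adjusted p = 0.000356). Fgfr3, a growth factor receptor of astrocytes, went from 540, 546 and 511 to 1341, 1343 and 1162 (log2 difference 1.26, SE 0.08, adjusted p = 4.71e-06). Gfap, the intermediate filament of astrocytes, fell from 625, 553 and 603 to 163, 187 and 149 (log2 difference -1.83, SE 0.12, adjusted p = 6.8e-06). Slc1a3, a glutamate transporter, went from 483, 605 and 555 to 63, 65 and 85 (log2 difference -2.94, SE 0.17, adjusted p = 3.23e-06). The water channel Aqp4, at 11, 7 and 7 in tumours and 7, 13 and 14 in 2D culture, was too low to test.

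Of 22 genes of reactive astrocytes, 12 fell and 6 rose (median -0.52, -1.37 over the members with a mean of at least 50). The falls were led by genes that myeloid cells also make, C3, Srgn and Cd14, with log2 differences of -10.25, -9.29 and -7.79. The rises were in the filament gene Nes (8749, 8836 and 9277 in tumours, 30601, 31724 and 32926 in 2D culture; log2 difference 1.83, SE 0.04, adjusted p = 2.16e-08), the surface gene Tm4sf1, the small heat shock gene Hspb1, the filament gene Vim, Cd44 and S1pr3, the last not called when 1 library was left out (adjusted p up to 0.0522). Nestin, the product of Nes, marks neural stem cells and glioma cells as well.

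Oligodendrocytes are not among the cell types that the labels name as seeded. The cells used as astrocytes, however, were those left over from the bead separation. Several oligodendrocyte genes were abundant in the dish. Mbp, myelin basic protein, rose from 857, 786 and 775 to 5854, 5563 and 5558 (log2 difference 2.81, SE 0.05, adjusted p = 1.32e-08). Cldn11, a claudin of myelin, went from 134, 159 and 162 to 825, 817 and 765 (log2 difference 2.40, SE 0.11, adjusted p = 9.93e-07). The lineage factor Olig2, which gliomas express, fell from 2175, 2035 and 2107 to 653, 728 and 669 (log2 difference -1.62, SE 0.06, adjusted p = 3.78e-07). Gpr17, a receptor of precursors, went from 702, 754 and 623 to 54, 35 and 56 (log2 difference -3.84, SE 0.21, adjusted p = 2.26e-06). Of 12 tested markers of this lineage, 2 rose and 8 fell. Of 12 neuronal markers 5 were abundant enough to test, and their summed level with the rest was 2496 to 2683 in 2D culture and 5884 to 6254 in tumours. Map2, a protein of dendrites, and Tubb3, the neuronal beta tubulin, fell, Tubb3 from 4724, 4976 and 4700 to 1622, 1695 and 1687 (log2 difference -1.52, SE 0.04, adjusted p = 8.13e-08). Syn1, a protein of synaptic vesicles, was called higher (adjusted p = 0.0448), a call lost in each of the 6 fits that left out 1 library (adjusted p up to 0.151), and Syt1 and Syp did not pass. The synaptic gene Snap25 was at 6, 0 and 0 in tumours and 0, 0 and 2 in 2D culture, and Rbfox3, a nuclear marker of neurons, at 0 in all 6 libraries.

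Genes named for glioma stem cells stayed mixed, with 4 of 13 tested higher and 5 lower, beside 29.5% of all genes higher and 29.1% lower. The integrin Itga6 rose from 1634, 1838 and 1793 to 5458, 5402 and 5342 (log2 difference 1.62, SE 0.05, adjusted p = 1.41e-07), whereas Sox2, a stem cell transcription factor, fell from 2250, 2331 and 2169 to 1752, 1781 and 1633 (log2 difference -0.39, SE 0.05, adjusted p = 0.000461). The RNA-binding protein gene Msi1 fell from 606, 634 and 602 to 319, 316 and 298 (log2 difference -0.98, SE 0.08, adjusted p = 2.58e-05). The list's median was -0.21 as deposited and turned to 0.20 after quantile normalization. Msln and Krt19, genes of mesothelium and simple epithelium, were at 0 in all 3 tumours and at 321, 650 and 342 and 199, 228 and 239 in 2D culture, whereas the keratins Krt8 and Krt18 fell, from 395, 478 and 417 to 110, 134 and 131 and from 73, 90 and 75 to 9, 4 and 0 (log2 differences -1.77 and -4.44). Leaving out 1 library moved Krt18 to -5.16 without 2D replicate 1, -3.50 without 2D replicate 3.

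**Figure D2:**
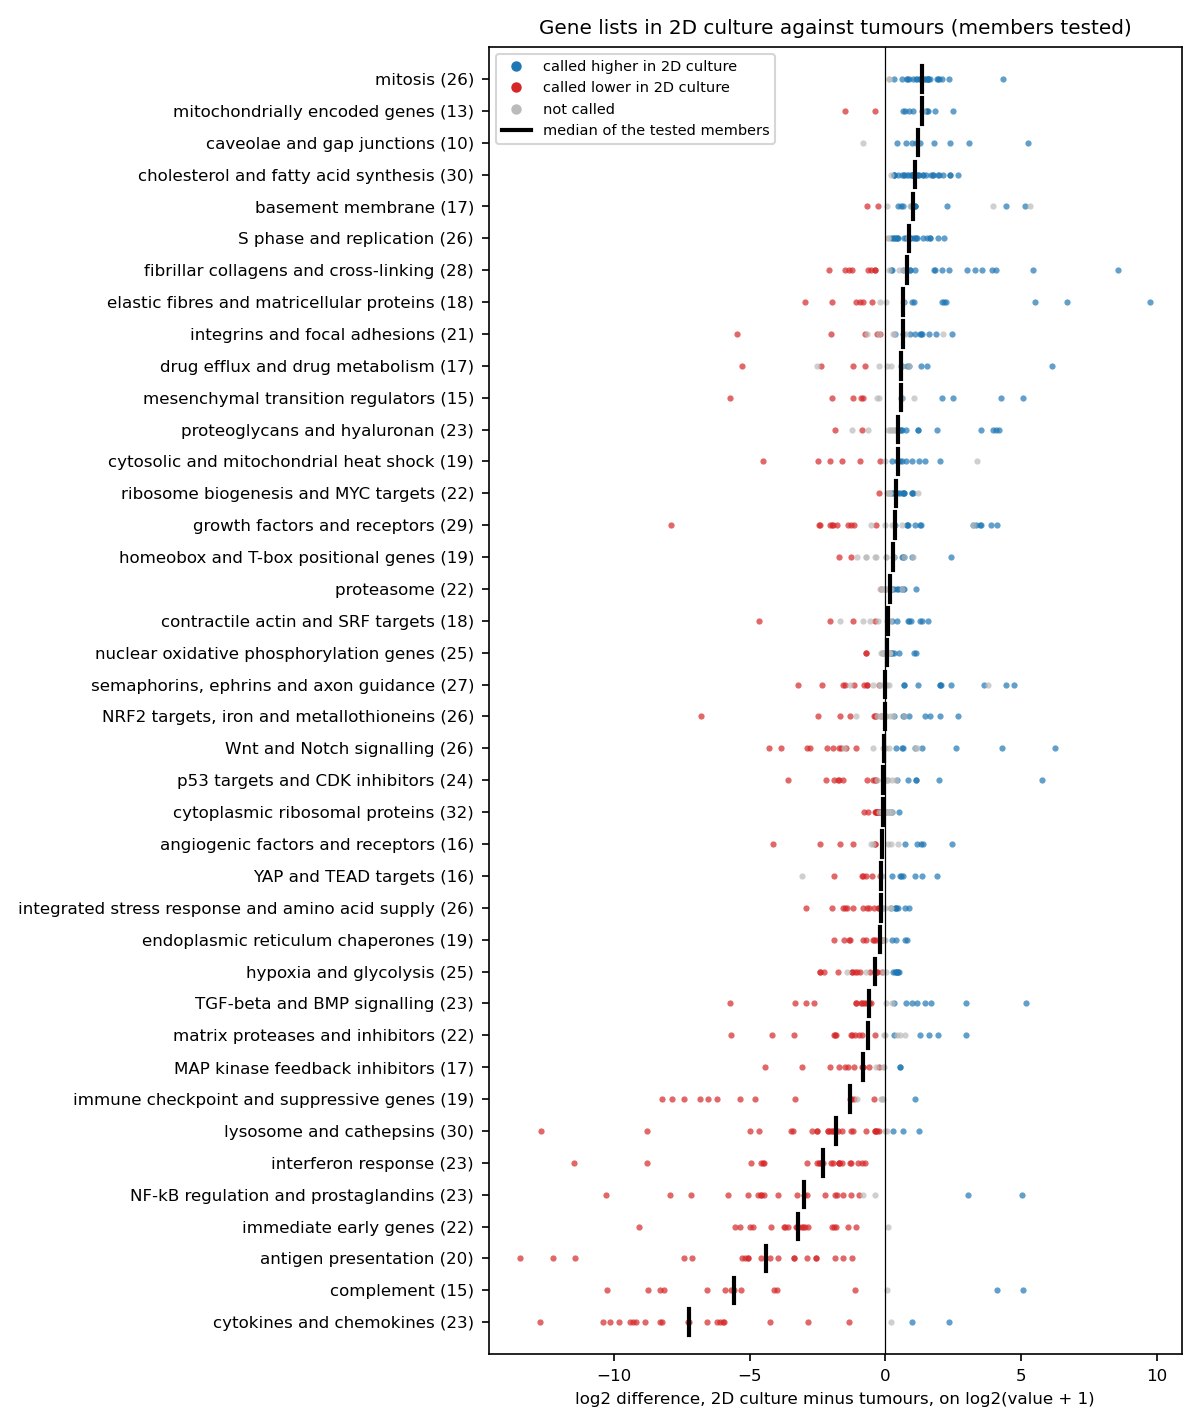
Each row is a gene list, each point a tested member's log2 difference (2D culture minus tumours), coloured by its call, with a black bar at the median of the tested members. Immune lists and immediate early genes lie to the left, and mitosis, mitochondrially encoded genes, caveolae, cholesterol synthesis and basement membrane to the right.

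Immediate early genes, which growth factor and stress signals switch on within minutes, were lower in the dish almost throughout. Of 22 tested, 21 fell, none rose and Fosl1 did not pass, against 29.1% of all genes lower; the median was -3.23, beside 0.00 for all genes. Fos, a partner in the dimeric factor AP-1 (chromosome 12, 85473890 to 85477274), stood at 34450, 34746 and 35210 in the tumours and 695, 786 and 754 in 2D culture (log2 difference -5.55, SE 0.05, adjusted p = 6.62e-10). Egr1, a zinc finger factor, stood at 28303, 29805 and 27852 and 691, 640 and 747 (log2 difference -5.37, SE 0.06, adjusted p = 1.33e-09). Fosb stood at 8665, 8990 and 8443 and 39, 5 and 16 (log2 difference -9.09, SE 0.58, adjusted p = 5.56e-06; -9.75 without 2D replicate 1, -8.38 without 2D replicate 2). Egr2 stood at 1058, 1047 and 1012 in tumours and 29, 38 and 37 in 2D culture (log2 difference -4.88, SE 0.15, adjusted p = 1.21e-07). In none of these did the groups come near each other. Jun, the partner of Fos, fell from 44911, 42829 and 39573 to 4126, 4281 and 4568 (log2 difference -3.29, SE 0.06, adjusted p = 7.59e-09). Zfp36, which marks inflammatory messages for decay, went from 1351, 974 and 1445 to 102, 114 and 71 (log2 difference -3.71, SE 0.21, adjusted p = 3.23e-06).

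The family was not uniformly low. Nr4a1, an orphan nuclear receptor, kept 3079, 3161 and 3315 in 2D culture against 8639, 8503 and 7467 in tumours (log2 difference -1.36, SE 0.06, adjusted p = 9.35e-07), and Fosl2 2072, 1981 and 1978 against 4535, 4353 and 4004 (log2 difference -1.09, SE 0.05, adjusted p = 1.52e-06). Fosl1, the late member of the Fos family, stood at 656, 750 and 711 in tumours and 654, 734 and 900 in 2D culture, with a 95% interval of the log2 difference from -0.18 to 0.38. The smallest falls of the list were thus in Fosl2 and Nr4a1, at log2 differences of -1.09 and -1.36, and the deepest in Fosb and Fos. Tumours were resected from brain and the culture was taken from a dish, so growth site and handling before RNA isolation cannot be told apart.

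Genes that switch MAP kinase signalling off, which are themselves induced by it, were lower with exceptions. Of 17 tested, 12 fell, 2 rose and 3 did not pass (median -0.84). The nuclear phosphatase Dusp2 fell from 1025, 995 and 824 to 56, 33 and 41 (log2 difference -4.45, SE 0.21, adjusted p = 1.12e-06). Dusp1, another nuclear phosphatase, went from 4503, 4297 and 4835 to 560, 443 and 636 (log2 difference -3.07, SE 0.12, adjusted p = 4.98e-07), and the ERK phosphatase Dusp6 from 12676, 11681 and 11238 to 6753, 6412 and 6660 (log2 difference -0.84, SE 0.05, adjusted p = 3.6e-06). Spred1, an inhibitor of RAS signalling, rose from 2153, 2107 and 2110 to 3035, 3070 and 3242 (log2 difference 0.55, SE 0.04, adjusted p = 1.81e-05). Dusp4 did not pass, at 744, 971 and 893 in tumours and 766, 894 and 854 in 2D culture.

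**Figure D3:**
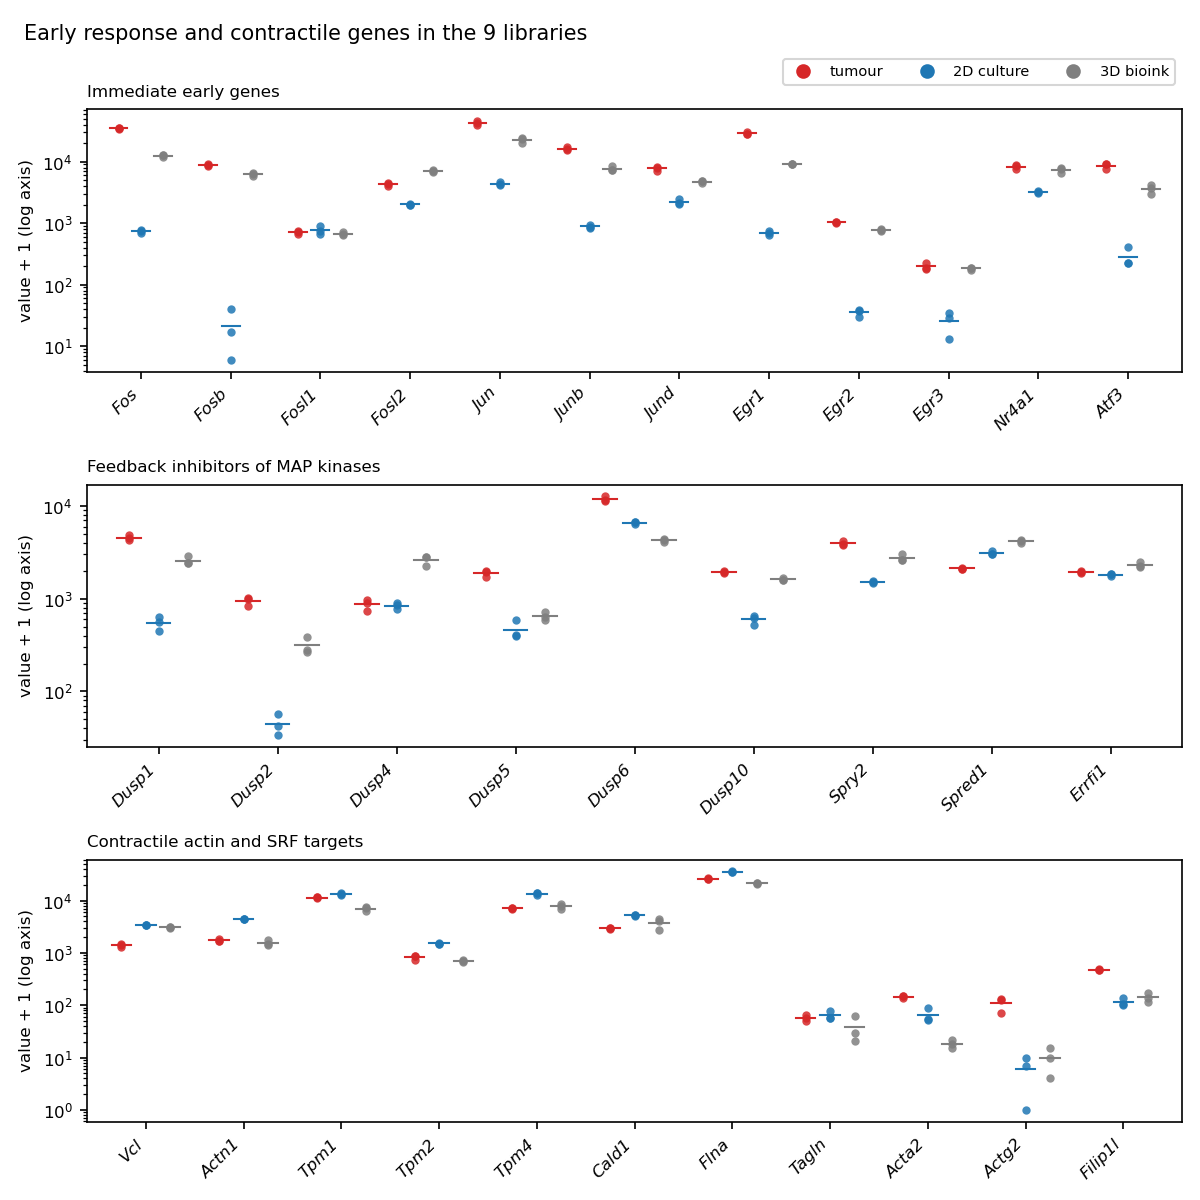
Values + 1 of immediate early genes, MAP kinase feedback inhibitors and contractile genes in the 9 libraries, on log axes, 1 point per library and a line at each group's mean. In the top row the 2D points lie lowest for all genes shown but Fosl1, and in the bottom row they lie highest for Actn1, Tpm1, Tpm2, Tpm4, Cald1 and Flna.

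Of 18 tested genes of the contractile list, which SRF is known to drive as well, 8 rose and 4 fell (median 0.10, 0.39 after quantile normalization, 0.34 over the members with a mean of at least 50, 0.03 without 2D replicate 1, 0.05 without tumour replicate 1, 0.16 without tumour replicate 3). The 8 that rose were Tpm1, Tpm2, Tpm4, Vcl, Actn1, Flna, Cald1 and Tgfb1i1. The stress fibre crosslinker Actn1 went from 1674, 1840 and 1668 to 4374, 4428 and 4407 (log2 difference 1.35, SE 0.05, adjusted p = 3.03e-07). Vcl, the focal adhesion protein vinculin, went from 1397, 1471 and 1311 to 3370, 3352 and 3388 (log2 difference 1.28, SE 0.05, adjusted p = 5.44e-07). Tpm4, a tropomyosin, went from 6761, 7188 and 7232 to 12822, 13708 and 13803 (log2 difference 0.93, SE 0.04, adjusted p = 1.12e-06). The 4 that fell were the smooth muscle actins Acta2 and Actg2, and Cnn2 and Filip1l. Acta2 went from 147, 136 and 152 to 87, 52 and 53 (log2 difference -1.21, SE 0.25, adjusted p = 0.00393). Actg2 went from 131, 69 and 125 to 9, 6 and 0 (log2 difference -4.67, SE 0.85, adjusted p = 0.00203; -5.31 without 2D replicate 1, -3.65 without 2D replicate 3). Filip1l fell from 493, 469 and 477 to 106, 139 and 102 (log2 difference -2.06, SE 0.15, adjusted p = 1.15e-05). Tagln, a marker of smooth muscle and myofibroblasts, did not pass, at 48, 55 and 64 and 77, 55 and 56, but was called higher after quantile normalization (adjusted p = 0.043). The other smooth muscle genes Myl9, Mylk, Lmod1 and Myh11 did not pass, but Myl9 was called lower without tumour replicate 1 and Myh11 without tumour replicate 3 (log2 differences -1.08 and -3.79).

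The sequences upstream of 3 of these genes show the element. The windows are the 250 bases before the annotated start in GRCm38.p6 (mm10), from RefSeq, on the gene's strand, with the CArG box, searched on both strands, in capitals. Egr2 and Zfp36 fell and Vcl rose. Genes were picked for print among holders of the box called in the direction of their list's median. The directions of these 3 were thus set by the choice. The windows are chr10:67537316-67537565 (plus strand) for Egr2, chr7:28379229-28379478 (minus) for Zfp36 and chr14:20929148-20929397 (plus) for Vcl.
Egr2: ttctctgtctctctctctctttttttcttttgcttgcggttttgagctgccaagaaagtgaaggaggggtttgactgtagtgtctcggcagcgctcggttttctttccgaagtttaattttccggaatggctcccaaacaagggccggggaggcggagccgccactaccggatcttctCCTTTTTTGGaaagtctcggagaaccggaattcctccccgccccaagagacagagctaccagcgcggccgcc
Zfp36: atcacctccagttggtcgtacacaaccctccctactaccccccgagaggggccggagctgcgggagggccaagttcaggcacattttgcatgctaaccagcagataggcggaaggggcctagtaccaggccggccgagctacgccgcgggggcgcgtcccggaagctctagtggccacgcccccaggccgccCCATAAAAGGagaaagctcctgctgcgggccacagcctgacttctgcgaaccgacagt
Vcl: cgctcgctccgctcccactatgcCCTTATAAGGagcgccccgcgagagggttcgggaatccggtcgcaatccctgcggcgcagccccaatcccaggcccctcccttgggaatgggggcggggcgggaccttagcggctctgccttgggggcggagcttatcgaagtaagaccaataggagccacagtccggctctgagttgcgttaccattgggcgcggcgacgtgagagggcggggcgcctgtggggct
The box begins 72 bases before the start in Egr2, 58 in Zfp36 and 227 in Vcl. Of 18 immediate early genes with a window, 2 held it, and of 14 contractile genes 4 held it, Cnn2 and Filip1l called lower, Vcl higher and Myl9 not called. It occurs in 1.47% of all 32851 windows, and genes with several annotated starts have more chances to hold one. A match is a string of letters and not evidence of binding, and boxes farther upstream are not in these windows.

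Targets of YAP and TEAD, which read cell spreading and stiffness, were split as well: 7 of 16 rose and 6 fell (median -0.16, -0.09 at equal sums). The classical targets Cyr61 and Ctgf fell, Cyr61 from 16999, 17231 and 17186 to 4565, 4528 and 4772 (log2 difference -1.89, SE 0.03, adjusted p = 8.53e-09) and Ctgf from 1707, 1975 and 1911 to 989, 1017 and 1070 (log2 difference -0.86, SE 0.07, adjusted p = 2.03e-05). Ankrd1, also on the list, did not pass. It was called lower without 2D replicate 1 (log2 difference -4.50, adjusted p = 0.00429). Crim1, a transmembrane protein that binds BMPs, rose from 77, 46 and 66 to 226, 223 and 242 (log2 difference 1.88, SE 0.22, adjusted p = 0.000191). Wwc1, a scaffold of the Hippo pathway, went from 681, 753 and 601 to 1718, 1706 and 1679 (log2 difference 1.33, SE 0.09, adjusted p = 5.53e-06). Cyr61 and Ctgf are immediate early genes too, though not on the list above.

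Adhesion genes rose more often than they fell. Of 21 integrin and focal adhesion genes, 10 rose and 5 fell (median 0.66, 0.39 without tumour replicate 1), beside 29.5% of all genes higher and 29.1% lower. Itgb1, the common beta chain of matrix receptors, rose from 5081, 4665 and 4768 to 12083, 12291 and 11799 (log2 difference 1.32, SE 0.04, adjusted p = 1.35e-07). Itga3, a laminin receptor chain, went from 159, 150 and 119 to 499, 488 and 553 (log2 difference 1.85, SE 0.14, adjusted p = 1.61e-05). Itgb5 fell from 5399, 5737 and 5671 to 1355, 1379 and 1495 (log2 difference -1.99, SE 0.05, adjusted p = 5.53e-08) and Itga9 from 555, 591 and 555 to 9, 13 and 14 (log2 difference -5.47, SE 0.23, adjusted p = 6.11e-07). Of 10 genes of caveolae and gap junctions, 9 rose, none fell and Pacsin2 did not pass (it was called lower without tumour replicate 2, adjusted p = 0.0111) (median 1.20). Cav1, the coat protein of caveolae, went from 71, 106 and 93 to 725, 836 and 746 (log2 difference 3.10, SE 0.17, adjusted p = 2.16e-06). Cavin1, its coat partner, went from 2513, 2585 and 2266 to 8553, 8421 and 8656 (log2 difference 1.80, SE 0.05, adjusted p = 1.01e-07). Gja1, a gap junction protein, went from 1870, 1985 and 1789 to 2600, 2497 and 2442 (log2 difference 0.42, SE 0.05, adjusted p = 0.000298).

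All 23 tested interferon response genes fell (median -2.32). Gbp2, an interferon-induced GTPase, stood at 22279, 22829 and 22369 in tumours and 706, 740 and 748 in 2D culture (log2 difference -4.94, SE 0.04, adjusted p = 4.87e-10). Cxcl10, a chemokine for T cells, stood at 14822, 14133 and 14340 and 618, 646 and 606 (log2 difference -4.53, SE 0.04, adjusted p = 7.51e-10). The smallest fall was that of Ifit1, which blocks translation of viral RNA, from 1694, 1568 and 1729 to 1061, 1052 and 881 (log2 difference -0.74, SE 0.08, adjusted p = 0.000154), and Isg15, a ubiquitin-like modifier, fell by little more (log2 difference -1.01, SE 0.06, adjusted p = 2.8e-06). The deepest were in Irf8, a factor of myeloid lineages, and Cxcl9, which in tumours were at 4649, 4486 and 4429 and 1516, 1556 and 1666 and in 2D culture at 1, 1 and 0 and 2, 4 and 2. Fewer than 2 log2 units separated the groups for the antiviral genes Ifit3, Stat2, Mx1 and Rsad2 (-1.71, -1.72, -1.73 and -1.93).

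The promoters of Gbp2 and Cxcl10 hold GAAA, any 2 bases and GAAA, the core of the interferon-stimulated response element, shown in capitals below (on the opposite strand in Gbp2). They were picked as the members with the largest falls among those that hold these letters.
Gbp2: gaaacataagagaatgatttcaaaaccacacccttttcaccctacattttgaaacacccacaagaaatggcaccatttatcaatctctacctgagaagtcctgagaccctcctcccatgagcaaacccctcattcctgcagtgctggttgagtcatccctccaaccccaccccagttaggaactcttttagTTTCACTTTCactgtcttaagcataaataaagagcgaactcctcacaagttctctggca
Cxcl10: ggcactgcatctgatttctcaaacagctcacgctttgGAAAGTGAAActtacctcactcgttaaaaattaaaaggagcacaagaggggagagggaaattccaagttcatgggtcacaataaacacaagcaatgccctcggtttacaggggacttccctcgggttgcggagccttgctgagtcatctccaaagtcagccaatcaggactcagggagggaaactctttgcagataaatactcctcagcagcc
The windows are chr3:142620413-142620662 (plus strand) and chr5:92348890-92349139 (minus) in GRCm38.p6, and the matches begin 59 and 213 bases before the start. Of 20 interferon genes with a window, 11 held the letters, against 2.98% of all windows. The count is per gene and the share per window, so they are not alike. All 11 were called lower, as were all 23 tested genes of the list, so the letters do not set them apart in direction.

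Antigen presentation was lower in all 20 genes tested (median -4.42). H2-K1, a classical MHC class I heavy chain, stood at 21274, 20820 and 22237 in tumours and 665, 626 and 631 in 2D culture (log2 difference -5.06, SE 0.04, adjusted p = 6.62e-10). B2m, the light chain that all class I molecules share, went from 21896, 21483 and 22002 to 3689, 3710 and 3580 (log2 difference -2.57, SE 0.03, adjusted p = 1.53e-09). Tap1, a chain of the peptide transporter, went from 17178, 17645 and 16444 to 1676, 1590 and 1650 (log2 difference -3.38, SE 0.04, adjusted p = 1.53e-09). Class II genes were near 0 in the dish: H2-Ab1 stood at 28480, 26610 and 25196 in tumours and 7, 3 and 4 in 2D culture (log2 difference -12.27, SE 0.23, adjusted p = 1.2e-08), and its activator Ciita at 2229, 1873 and 2043 and 16, 9 and 9 (log2 difference -7.42, SE 0.24, adjusted p = 1.38e-07). Erap1, which trims peptides, fell least (log2 difference -1.24, SE 0.10, adjusted p = 1.9e-05). H2 genes have close paralogues, and their values are uncertain where reads could be split.

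Of 23 cytokines and chemokines, 20 fell and 2 rose (median -7.23, -6.39 without the 3 members at 0). Cxcl2, which draws neutrophils, stood at 5663, 5461 and 5794 in tumours and 3, 1 and 14 in 2D culture (log2 difference -10.16, SE 0.63, adjusted p = 4.84e-06; -9.51 without 2D replicate 2, -10.96 without 2D replicate 3). Cxcl16, another chemokine, stood at 4029, 4181 and 3928 and 24, 21 and 30 (log2 difference -7.30, SE 0.14, adjusted p = 1.3e-08). Ccl2, the main monocyte attractant, went from 1135, 1080 and 1083 to 22, 14 and 11 (log2 difference -6.10, SE 0.25, adjusted p = 5.35e-07). Csf1, the growth factor that microglia need, fell less, from 3333, 3238 and 3342 to 1311, 1240 and 1345 (log2 difference -1.35, SE 0.05, adjusted p = 2.54e-07). The 2 that rose were the alarmin Il33, from 53, 31 and 73 to 242, 255 and 261 (log2 difference 2.33, SE 0.30, adjusted p = 0.000323), and osteopontin, encoded by Spp1, from 1098, 1074 and 1109 to 2127, 2220 and 2171 (log2 difference 0.99, SE 0.05, adjusted p = 1.12e-06). Cxcl12 did not pass, at 83, 82 and 60 and 79, 89 and 89, but was called higher after quantile normalization (adjusted p = 0.0359).

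NF-kB feedback genes followed the cytokines. Of 23 genes of NF-kB regulation and prostaglandin synthesis, 19 fell and 2 rose (median -2.90 without the 2 members at 0). Nfkbia, the inhibitor that NF-kB induces against itself, stood at 14290, 14912 and 14297 in tumours and 656, 609 and 664 in 2D culture (log2 difference -4.49, SE 0.05, adjusted p = 9.54e-10). Tnfaip3, a ubiquitin editor that ends the signal, stood at 13545, 13375 and 13397 and 206, 256 and 252 (log2 difference -5.82, SE 0.08, adjusted p = 3.48e-09). The subunits Nfkb1 and Nfkb2 did not pass, at 963, 1756 and 1190 and 354, 744 and 742 in tumours and 1102, 932 and 910 and 331, 258 and 420 in 2D culture. Both were called lower without tumour replicate 1 (log2 differences -0.56 and -1.17). Nfkb2, at -0.81 (adjusted p = 0.0526), was also called lower without 2D replicate 3, with all 9 libraries in the fit, with 10 added before log2 and among genes with a mean of at least 50 (adjusted p = 0.0459, 0.0462, 0.0458 and 0.0468). Ptgs2, the inducible cyclooxygenase, fell from 2071, 1890 and 1894 to 77, 106 and 62 (log2 difference -4.60, SE 0.18, adjusted p = 4.61e-07), whereas Ptgis, prostacyclin synthase, rose from 5, 11 and 5 to 198, 255 and 296 (log2 difference 5.03, SE 0.37, adjusted p = 1.28e-05) and Ptges, a prostaglandin E synthase, from 36, 24 and 11 to 217, 156 and 186 (log2 difference 3.06, SE 0.42, adjusted p = 0.000425).

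Of 15 complement genes, 12 fell and 2 rose (median -5.57; 1 rose with a robust variance prior). Cfb, of the alternative pathway, went from 6563, 6580 and 7016 to 62, 80 and 66 (log2 difference -6.59, SE 0.10, adjusted p = 5.45e-09). C1ra, a protease of C1, went from 2232, 2103 and 1883 to 47, 47 and 35 (log2 difference -5.57, SE 0.15, adjusted p = 5.75e-08). Clu, which restrains the terminal complex, fell less, from 2930, 2885 and 3116 to 1423, 1267 and 1395 (log2 difference -1.13, SE 0.06, adjusted p = 2.09e-06). Cd55, an inhibitor of complement, was among the genes that rose and went from 1, 11 and 3 to 73, 82 and 78 (log2 difference 4.10, SE 0.66, adjusted p = 0.000989; 3.50 without tumour replicate 1, 4.80 without tumour replicate 2).

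Of 19 immune checkpoint and suppressive genes 14 fell and 1 rose (median -1.31, -3.35 over the members with a mean of at least 50). Cd274, which encodes PD-L1, fell from 4378, 4291 and 4564 to 114, 96 and 106 (log2 difference -5.38, SE 0.08, adjusted p = 5.11e-09). Cd47, the signal against phagocytosis, went from 2428, 2599 and 2457 to 1092, 1012 and 1023 (log2 difference -1.26, SE 0.05, adjusted p = 7.18e-07). The receptor that reads Cd47, Sirpa, went from 4291, 4272 and 4196 to 50, 36 and 48 (log2 difference -6.56, SE 0.13, adjusted p = 1.49e-08). Lgals1, a galectin of mesenchymal and glioma cells, rose from 5543, 5356 and 6019 to 13522, 11876 and 10618 (log2 difference 1.08, SE 0.09, adjusted p = 1.97e-05), while Lgals3 and the receptor ligand Pvr did not pass, with intervals of -0.16 to 0.01 and -0.34 to 0.04; Pvr was called lower without tumour replicate 3 (adjusted p = 0.0182). The immune lists moved with the myeloid markers, whose summed levels stand above; their part in these falls was not tested.

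All cells use lysosomes, and phagocytes most. Of 30 lysosomal genes, 25 fell and 3 rose (median -1.81). The sizes differed widely within the list. Ctsc, a protease that activates granule enzymes of immune cells, stood at 5151, 4967 and 4597 in tumours and 10, 13 and 8 in 2D culture (log2 difference -8.78, SE 0.18, adjusted p = 1.49e-08). Lgmn, legumain, stood at 12504, 12681 and 13334 and 501, 516 and 484 (log2 difference -4.68, SE 0.05, adjusted p = 7.51e-10). The broadly made Ctsb and Ctsd fell less, from 24170, 24260 and 22841 to 4193, 4173 and 4151 and from 25134, 22706 and 23006 to 6091, 5499 and 5641 (log2 differences -2.51 and -2.04). Lamp1, the main membrane protein of lysosomes, went from 10885, 10902 and 10664 to 8389, 8391 and 8376 (log2 difference -0.37, SE 0.03, adjusted p = 2e-05), while Lamp2 and Cd63 did not pass, with intervals of -0.09 to 0.20 and -0.27 to 0.21. Of the 3 that rose, Atp6v1a, a proton pump subunit, went from 1245, 1212 and 1171 to 1885, 1880 and 1960 (log2 difference 0.66, SE 0.05, adjusted p = 1.45e-05) and the cholesterol exporter Npc1 from 2051, 2086 and 2107 to 2666, 2468 and 2516 (log2 difference 0.29, SE 0.05, adjusted p = 0.000941). The microglia and macrophage lists, summed at 981 to 1087 and 6799 to 7921 in 2D culture and at 54925 to 58868 and 41007 to 42175 in tumours, moved the same way; their part was not tested.

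Genes of the cell cycle were higher in the dish. Of 26 genes of S phase and replication, 23 rose, none fell and Mcm5, Cdt1 and Rfc3 did not pass (median 0.86, against 29.5% of all genes higher); Mcm5 was called higher without tumour replicate 2 (adjusted p = 0.00207). Rrm2, a subunit of ribonucleotide reductase, went from 780, 616 and 665 to 2687, 2573 and 2663 (log2 difference 1.95, SE 0.09, adjusted p = 8.54e-07). Ccne2, cyclin E2, went from 68, 62 and 103 to 338, 350 and 330 (log2 difference 2.15, SE 0.21, adjusted p = 6.36e-05). The replication clamp Pcna rose less, from 2519, 2099 and 2274 to 2841, 2845 and 2903 (log2 difference 0.32, SE 0.07, adjusted p = 0.00409), as did Mcm2, of the replicative helicase (log2 difference 0.43, SE 0.05, adjusted p = 0.000173).

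In the mitosis list 24 of 26 rose and none fell (median 1.37). Kif11, the motor that sets up the bipolar spindle, stood at 120, 106 and 93 in tumours and 454, 444 and 459 in 2D culture (log2 difference 2.09, SE 0.14, adjusted p = 6.48e-06). Prc1, which bundles the microtubules of the central spindle, stood at 1131, 940 and 1139 and 4107, 4257 and 4211 (log2 difference 1.97, SE 0.08, adjusted p = 4.17e-07). Bub1, a kinase of the spindle checkpoint, stood at 129, 116 and 82 and 533, 577 and 549 (log2 difference 2.36, SE 0.18, adjusted p = 1.5e-05). Ttk, a checkpoint kinase, had the largest rise, from 23, 49 and 0 to 244, 217 and 191 (log2 difference 4.35, SE 1.29, adjusted p = 0.0202; 4.27 with adjusted p = 0.057 without 2D replicate 1, 4.35 with adjusted p = 0.0534 without 2D replicate 2, 4.94 without tumour replicate 1, 5.47 without tumour replicate 2, 2.65 without tumour replicate 3); its adjusted p was 0.0718 with a robust variance prior. Mki67, the usual marker of cycling cells, and the kinesin Cenpe were the 2 that did not pass. Mki67 stood at 1724, 1817 and 1754 in tumours and 1858, 1936 and 1974 in 2D culture, with an interval of the log2 difference from 0.01 to 0.24; it was called higher at equal upper quartiles and at equal sums (log2 differences 0.13 and 0.19). 

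**Figure D4:**
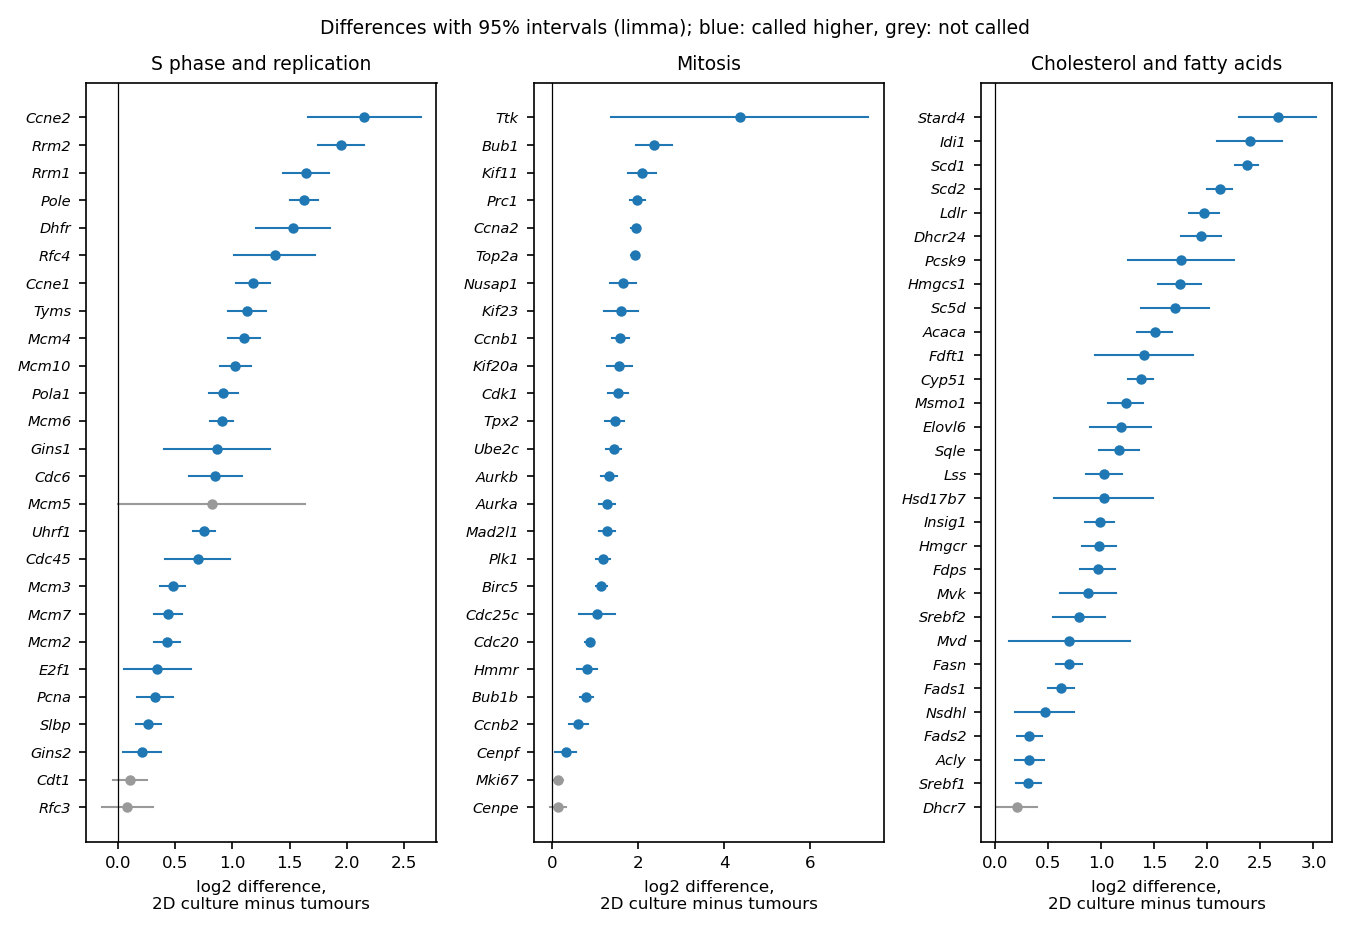
Log2 differences (2D culture minus tumours) with 95% intervals for each tested gene of 3 lists, blue where called higher and grey where not called. In the S phase panel 23 of 26 are blue, in mitosis 24 of 26, and in cholesterol and fatty acid synthesis 29 of 30, and no gene was called lower.

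The windows upstream of Kif11 and Prc1 hold the letters TTTGAA of the cell cycle homology region (CHR), where the repressor complex of resting cells binds, and a CCAAT box. Both are in capitals below, and in Kif11 both lie on the opposite strand.
Kif11: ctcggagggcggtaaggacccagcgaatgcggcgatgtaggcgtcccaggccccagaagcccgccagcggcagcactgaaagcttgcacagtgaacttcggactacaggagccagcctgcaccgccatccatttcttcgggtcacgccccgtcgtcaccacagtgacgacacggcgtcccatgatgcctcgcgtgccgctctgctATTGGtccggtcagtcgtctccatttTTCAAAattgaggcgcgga
Prc1: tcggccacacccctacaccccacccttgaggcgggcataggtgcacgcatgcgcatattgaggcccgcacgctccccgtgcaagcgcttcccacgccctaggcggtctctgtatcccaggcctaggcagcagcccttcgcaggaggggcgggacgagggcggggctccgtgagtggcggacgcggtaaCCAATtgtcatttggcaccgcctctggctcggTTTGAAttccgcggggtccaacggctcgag
The windows are chr19:37376132-37376381 and chr7:80294226-80294475, both on the plus strand of GRCm38.p6. The boxes begin 45 and 19 bases before the start in Kif11 and 62 and 30 in Prc1. Of 21 mitosis genes with a window, 8 held TTTGAA, 7 of them called higher and the other Mki67. No tested gene of the list was called lower, so the letters do not set these 8 apart in direction. TTTGAA occurs in 15.99% of all windows, and 5.55% hold TTTGAA and a CCAAT box. The count is per gene and the share per window, so they are not alike.

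Brakes of the cell cycle did not move as one. Of 24 p53 targets and inhibitors of cyclin-dependent kinases, 6 rose and 10 fell, beside 29.5% of all genes higher and 29.1% lower. Their median was -0.07, turned to 0.01 after quantile normalization and was -0.15 without tumour replicate 1. Cdkn1a, p21, fell from 3005, 3033 and 2630 to 2360, 2166 and 2359 (log2 difference -0.33, SE 0.07, adjusted p = 0.00378), and Ccng1, cyclin G1, rose from 329, 396 and 320 to 1332, 1410 and 1375 (log2 difference 1.98, SE 0.09, adjusted p = 1.17e-06). Mdm2, which p53 induces against itself, and Cdkn2a did not pass, with intervals from -0.03 to 0.17 and -0.10 to 0.29; Mdm2 was called higher at equal sums (adjusted p = 0.0271). Sesn2 and Gadd45a, which stress induces, fell from 4450, 4043 and 3994 to 1423, 1435 and 1351 and from 976, 966 and 805 to 174, 229 and 356 (log2 differences -1.57 and -1.91).

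Of 30 genes of cholesterol and fatty acid synthesis, 29 rose and none fell (median 1.10). Hmgcs1, which makes HMG-CoA, stood at 278, 322 and 304 in tumours and 1057, 964 and 1001 in 2D culture (log2 difference 1.74, SE 0.09, adjusted p = 1.44e-06). Idi1, of isoprenoid synthesis, went from 160, 123 and 125 to 676, 730 and 744 (log2 difference 2.40, SE 0.13, adjusted p = 2.48e-06). Scd1, a fatty acid desaturase, went from 2320, 2332 and 2129 to 12063, 11512 and 11508 (log2 difference 2.37, SE 0.05, adjusted p = 1.45e-08). Fasn, fatty acid synthase, rose less, from 6389, 6083 and 6575 to 10620, 10671 and 9580 (log2 difference 0.70, SE 0.05, adjusted p = 1.46e-05). Dhcr7 did not pass, at 562, 541 and 505 and 609, 657 and 595, but was called higher after quantile normalization, at equal sums and without tumour replicate 1 (adjusted p = 0.0246, 0.0198 and 0.0479).

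The window upstream of Hmgcs1 (chr13:119690101-119690350, plus strand, GRCm38.p6) is shown with the sterol regulatory element searched, TCACNCCAC on either strand, in capitals.
Hmgcs1: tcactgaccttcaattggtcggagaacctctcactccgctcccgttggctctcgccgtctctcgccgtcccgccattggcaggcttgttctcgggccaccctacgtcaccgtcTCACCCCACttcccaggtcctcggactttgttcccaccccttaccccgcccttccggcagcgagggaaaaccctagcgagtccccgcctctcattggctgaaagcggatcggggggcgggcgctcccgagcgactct
The element begins 137 bases before the start. It was found in 1 of the 19 genes of the list that have a window, and in 1.05% of all windows. Apoe, the carrier that brings cholesterol from glia to other cells, fell in the same libraries, as given above.

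**Figure D5:**
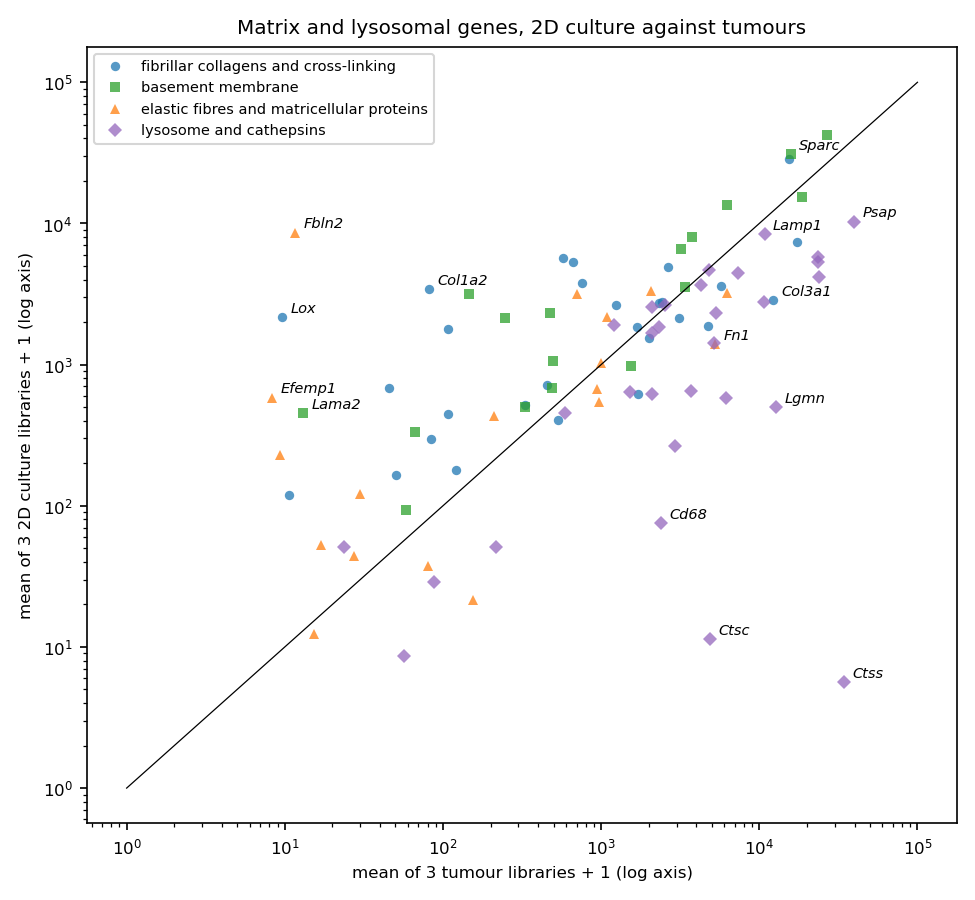
Mean of the 3 2D libraries against the mean of the 3 tumour libraries, each + 1 on a log axis, for 3 matrix lists and the lysosomal list; the line marks equal values. Lox, Fbln2, Efemp1, Lama2 and Col1a2 lie far above the line, Col3a1 and Fn1 below it, and Ctss and Ctsc lowest.

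Matrix genes moved in both directions. Of 28 genes of fibrillar collagens and their cross-linking, 17 rose and 8 fell (median 0.79). The chains of type I collagen rose, Col1a1 from 656, 675 and 654 to 5280, 5347 and 5408 (log2 difference 3.01, SE 0.04, adjusted p = 3.32e-09) and Col1a2 from 114, 66 and 63 to 3250, 3354 and 3635 (log2 difference 5.43, SE 0.21, adjusted p = 4.08e-07). Col3a1, the type III chain that often goes with them, fell from 12680, 11957 and 11907 to 2831, 2884 and 2863 (log2 difference -2.09, SE 0.04, adjusted p = 8.71e-09). Col16a1 went from 17319, 17054 and 17245 to 7033, 7283 and 7761 (log2 difference -1.23, SE 0.04, adjusted p = 1.86e-07). The type VI chains Col6a1 and Col6a2 rose from 794, 659 and 802 to 3896, 3666 and 3827 and from 98, 120 and 101 to 1775, 1727 and 1872 (log2 differences 2.34 and 4.07). Col6a3, the chain needed with them, did not pass, at 106, 106 and 148 and 117, 159 and 261, but was called higher after quantile normalization (adjusted p = 0.0426). Lox, the enzyme that cross-links collagen, was at 0, 9 and 17 in tumours and 2161, 2161 and 2189 in 2D culture (log2 difference 8.59, SE 0.94, adjusted p = 0.000118; 7.34 without tumour replicate 1, 9.42 without tumour replicate 3). Lysyl hydroxylases of collagen, by contrast, fell: Plod1, Plod2 and Plod3 had log2 differences of -0.54, -0.37 and -0.66. Of 9 tested fibroblast markers, 5 rose and 4 fell (2 after quantile normalization), with a summed level of 13474 to 14175 in 2D culture and 15515 to 16480 in tumours, and Dcn, decorin, was near 0 in the 2 groups (1, 0 and 11 and 3, 4 and 0). The part of fibroblasts in the collagen values was not tested.

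Of 17 basement membrane genes 11 rose and 2 fell (median 1.02). Lama2, a laminin chain (chromosome 10, 26981285 to 27617191), went from 10, 12 and 14 to 434, 450 and 481 (log2 difference 5.14, SE 0.22, adjusted p = 6.79e-07). Nid1, nidogen, went from 150, 130 and 158 to 3111, 3165 and 3188 (log2 difference 4.43, SE 0.09, adjusted p = 1.39e-08). Lamb1 went from 6208, 6288 and 6382 to 13812, 13389 and 13381 (log2 difference 1.10, SE 0.03, adjusted p = 8.51e-08). Col4a1 was at 300, 442 and 0 in tumours, where the libraries disagreed, and at 2829, 2042 and 1536 in 2D culture, and did not pass (log2 difference 5.34, adjusted p = 0.0578). It was called higher with all 9 libraries in the fit (adjusted p = 0.0331), with 10 added before log2 (adjusted p = 0.019) and without any 1 of the tumour libraries, with log2 differences of 6.62, 6.90 and 2.50 without tumour replicates 1, 2 and 3. Its partner chain Col4a2 rose from 473, 449 and 506 to 2227, 2151 and 2532 (log2 difference 2.27, SE 0.08, adjusted p = 2.54e-07). The 2 that fell were Col4a5 and Col18a1; Col18a1 went from 18551, 18305 and 18608 to 14682, 15229 and 16460 (log2 difference -0.26, SE 0.04, adjusted p = 0.00147) and was no longer called after quantile normalization (adjusted p = 0.224).

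Of 18 elastic fibre and matricellular genes, 9 rose and 6 fell (median 0.67). Fbn1, fibrillin, went from 628, 660 and 835 to 3264, 3098 and 3165 (log2 difference 2.18, SE 0.10, adjusted p = 1.15e-06). Efemp1 went from 17, 4 and 1 to 613, 582 and 553 (log2 difference 6.69, SE 0.71, adjusted p = 9.59e-05; 7.53 without tumour replicate 1, 5.94 without tumour replicate 3). Fn1, fibronectin, fell from 5227, 5134 and 5347 to 893, 1284 and 2024 (log2 difference -1.98, SE 0.25, adjusted p = 0.000273), as did Thbs1, thrombospondin 1, from 6434, 6168 and 6008 to 3142, 3317 and 3263 (log2 difference -0.94, SE 0.04, adjusted p = 8.76e-07), whereas Thbs2 rose from 2083, 1942 and 2186 to 3192, 3470 and 3224 (log2 difference 0.67, SE 0.06, adjusted p = 3.21e-05). Of 23 proteoglycan and hyaluronan genes, 13 rose and 2 fell (median 0.48, 0.79 after quantile normalization). Bgn, biglycan, went from 64, 58 and 57 to 1027, 1032 and 971 (log2 difference 4.06, SE 0.11, adjusted p = 7.75e-08). Cemip, which degrades hyaluronan, went from 113, 115 and 123 to 1962, 1801 and 1763 (log2 difference 3.96, SE 0.09, adjusted p = 2.2e-08). The 2 that fell were Sdc4, a syndecan of focal adhesions (4339, 4232 and 4128 to 1146, 1174 and 1152; log2 difference -1.87, SE 0.04, adjusted p = 2.67e-08), and the brain proteoglycan Bcan (1068, 1184 and 1190 to 625, 710 and 560; log2 difference -0.87, SE 0.10, adjusted p = 0.000145).

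Matrix proteases leaned the other way: of 22 proteases and inhibitors, 12 fell and 5 rose (median -0.63). Plau, urokinase, fell from 1303, 1048 and 1168 to 65, 60 and 63 (log2 difference -4.20, SE 0.12, adjusted p = 9.15e-08). Plaur, its receptor, went from 1443, 1490 and 1363 to 401, 390 and 370 (log2 difference -1.88, SE 0.07, adjusted p = 3.03e-07). Mmp14, the membrane protease that activates gelatinase A, went from 4450, 4413 and 4167 to 1184, 1251 and 1284 (log2 difference -1.81, SE 0.05, adjusted p = 7.5e-08). Mmp13, a collagenase, went from 330, 321 and 279 to 6, 9 and 2 (log2 difference -5.71, SE 0.46, adjusted p = 1.98e-05). The inhibitor Timp2 rose from 3501, 3198 and 2630 to 9924, 8633 and 9676 (log2 difference 1.60, SE 0.10, adjusted p = 5.98e-06), and the proteoglycan-cutting Adamts4 from 123, 105 and 136 to 995, 949 and 931 (log2 difference 2.98, SE 0.12, adjusted p = 4.83e-07). Timp1 did not pass, at 947, 970 and 1077 and 1022, 988 and 934.

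Of 23 genes of TGF-beta and BMP signalling, which hold ligands, receptors, inhibitors and targets, 13 fell and 8 rose (median -0.60). The ligand Tgfb1 fell from 2077, 2021 and 1917 to 198, 194 and 194 (log2 difference -3.35, SE 0.07, adjusted p = 1.7e-08), and its target Tgfbi, a matrix protein of macrophages and mesenchyme, from 15757, 15789 and 15106 to 324, 283 and 276 (log2 difference -5.72, SE 0.07, adjusted p = 1.4e-09). The receptors Tgfbr1 and Tgfbr2 fell (log2 differences -0.60 and -0.71), while the co-receptor Tgfbr3 rose from 40, 11 and 17 to 797, 752 and 710 (log2 difference 5.19, SE 0.41, adjusted p = 1.86e-05). On the BMP branch the ligand Bmp2 fell from 179, 157 and 158 to 21, 23 and 18 (log2 difference -2.94, SE 0.24, adjusted p = 2.03e-05), and the target Id1 rose from 160, 236 and 213 to 518, 555 and 580 (log2 difference 1.45, SE 0.15, adjusted p = 0.000102) while Id2 fell from 1352, 1142 and 1182 to 623, 586 and 519 (log2 difference -1.09, SE 0.10, adjusted p = 3.37e-05).

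Of 26 Wnt and Notch genes, 8 rose and 10 fell, with a median near 0 under all scalings (-0.05 as deposited, 0.02 at equal sums, -0.16 without tumour replicate 3). Over all tested genes, 29.5% were higher and 29.1% lower. Wnt5a, a ligand of non-canonical signalling, rose from 18, 5 and 7 to 187, 211 and 170 (log2 difference 4.29, SE 0.45, adjusted p = 9.23e-05). Axin2, the feedback target of canonical Wnt, fell from 615, 629 and 670 to 210, 177 and 228 (log2 difference -1.64, SE 0.12, adjusted p = 1.13e-05), and the Notch ligand Dll1 from 155, 112 and 165 to 26, 15 and 20 (log2 difference -2.78, SE 0.31, adjusted p = 0.000123). The receptors Notch1 and Notch2 stood at 6686, 6444 and 6241 and 4515, 4600 and 4500 in tumours and 8272, 8441 and 8869 and 4461, 4473 and 4539 in 2D culture, of which Notch1 was called higher (log2 difference 0.40).

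Of 29 growth factors and receptors, 13 rose and 11 fell (median 0.34, 0.78 after quantile normalization, 0.13 with no filter on low values). Egfr, the receptor most often amplified in human glioblastoma, went from 9, 28 and 26 to 224, 210 and 246 (log2 difference 3.52, SE 0.42, adjusted p = 0.000194). Igfbp6, which binds IGF, went from 32, 14 and 27 to 392, 411 and 457 (log2 difference 4.13, SE 0.31, adjusted p = 1.36e-05). Of the PDGF axis, the ligand Pdgfa rose from 909, 909 and 757 to 2047, 2154 and 2071 (log2 difference 1.29, SE 0.08, adjusted p = 4.85e-06) and Pdgfb, made by endothelium and macrophages, fell from 353, 395 and 388 to 1, 1 and 0 (log2 difference -7.90, SE 0.41, adjusted p = 1.72e-06). Igf2 fell from 1207, 1553 and 1333 to 585, 526 and 587 (log2 difference -1.26, SE 0.10, adjusted p = 2.03e-05). Among 16 angiogenic genes, 5 rose and 6 fell, beside 29.5% of all genes higher and 29.1% lower. Vegfa fell from 6140, 6292 and 6215 to 1179, 1129 and 1173 (log2 difference -2.42, SE 0.04, adjusted p = 6.86e-09), and its receptor Kdr from 82, 143 and 84 to 39, 22 and 34 (log2 difference -1.66, SE 0.34, adjusted p = 0.00386), whereas the co-receptors Nrp1 and Nrp2 rose, from 554, 501 and 431 to 1086, 1159 and 1071 and from 3002, 2690 and 2865 to 6854, 7189 and 7084 (log2 differences 1.16 and 1.30). Angpt2 did not pass, at 442, 396 and 383 and 508, 448 and 451, but was called higher after quantile normalization and at equal sums (adjusted p = 0.0381 and 0.0466).

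Of 27 genes of axon guidance, 10 rose and 9 fell, beside 29.5% of all genes higher and 29.1% lower. Efnb2, an ephrin of arteries and neural cells, rose from 16, 18 and 9 to 357, 412 and 410 (log2 difference 4.73, SE 0.29, adjusted p = 4.44e-06) and Slit2 from 7, 14 and 9 to 234, 264 and 195 (log2 difference 4.44, SE 0.32, adjusted p = 1.13e-05), while Ephb2 fell from 325, 357 and 382 to 43, 37 and 32 (log2 difference -3.22, SE 0.19, adjusted p = 3.44e-06). Of 15 mesenchymal regulators, 6 rose and 5 fell. N-cadherin, encoded by Cdh2, rose from 2049, 2365 and 2318 to 9578, 9669 and 9643 (log2 difference 2.10, SE 0.06, adjusted p = 6.31e-08). S100a4 went from 38, 29 and 33 to 753, 655 and 549 (log2 difference 4.25, SE 0.19, adjusted p = 8.01e-07); the transcription factors Zeb1, Twist1, Snai1 and Snai2 did not pass, though Snai1 was called higher after quantile normalization, with all 9 libraries and without tumour replicate 3 (log2 differences 1.72, 1.05 and 1.45). Zeb2 fell from 2167, 2685 and 2202 to 1347, 1422 and 1181 (log2 difference -0.83, SE 0.10, adjusted p = 0.000218).

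Of 25 genes of hypoxia and glycolysis, 7 rose and 14 fell (median -0.37, -0.15 after quantile normalization). The 7 that rose were the glycolytic genes Gapdh, Pgk1, Eno1, Pkm and Ldha, and Pdk1 and Ddit4. Pgk1 went from 15064, 15330 and 14992 to 23928, 21311 and 19139 (log2 difference 0.50, SE 0.07, adjusted p = 0.000618). Gapdh went from 34616, 33157 and 31612 to 45603, 43231 and 43511 (log2 difference 0.41, SE 0.04, adjusted p = 7.15e-05) and Ldha from 9159, 9305 and 8325 to 11806, 11499 and 11398 (log2 difference 0.37, SE 0.05, adjusted p = 0.000271). Slc2a1, the glucose transporter, fell from 5738, 5292 and 5248 to 1639, 1493 and 1658 (log2 difference -1.76, SE 0.06, adjusted p = 1.63e-07). Hk2, hexokinase 2, went from 3321, 3332 and 3168 to 1421, 1448 and 1352 (log2 difference -1.22, SE 0.05, adjusted p = 4.18e-07). Car9, a carbonic anhydrase, went from 212, 175 and 154 to 51, 35 and 27 (log2 difference -2.26, SE 0.29, adjusted p = 0.000263). Ndrg1 fell from 376, 348 and 369 to 71, 79 and 54 (log2 difference -2.42, SE 0.18, adjusted p = 1.36e-05), and Vegfa belongs to this list too. Pdk1, which keeps pyruvate out of mitochondria and is a hypoxia target, rose from 573, 638 and 635 to 822, 887 and 817 (log2 difference 0.45, SE 0.08, adjusted p = 0.00126). Ddit4, a stress-induced inhibitor of mTOR signalling that hypoxia induces, rose from 1434, 1366 and 1283 to 1816, 1594 and 1558 (log2 difference 0.28, SE 0.07, adjusted p = 0.0129). The lactate exporter Slc16a3 and the glycolytic enzyme Tpi1 were among those that fell, Tpi1 by little (log2 difference -0.14), a call lost at each other scaling (adjusted p = 0.063 to 0.23) and in 4 of the 6 fits that left out 1 library, all but those without 2D replicate 1 or tumour replicate 3 (adjusted p up to 0.138), and Hk1, Pgam1, Pfkfb4 and Ankrd37 did not pass.

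Nuclear and mitochondrial genes of respiration differed in how far they moved. Of 25 nuclear genes, 7 rose, 2 fell and 16 did not pass (median 0.05, 0.02 without 2D replicate 1, 0.12 without tumour replicate 1), beside 29.5% of all genes higher and 29.1% lower. For 16 the interval lay within 0.5, against 22% of all genes. Ndufs1, of complex I, rose from 829, 996 and 892 to 1852, 1855 and 1880 (log2 difference 1.04, SE 0.07, adjusted p = 9.17e-06) and Cyc1, of complex III, fell from 529, 609 and 571 to 371, 401 and 276 (log2 difference -0.72, SE 0.15, adjusted p = 0.00377). Of 13 mitochondrially encoded genes, 10 rose and 2 fell (median 1.34). ND1 went from 5719, 5541 and 6186 to 20334, 21362 and 20337 (log2 difference 1.83, SE 0.05, adjusted p = 5.41e-08). CYTB went from 6325, 6191 and 6058 to 15595, 15591 and 15751 (log2 difference 1.34, SE 0.03, adjusted p = 3.22e-08) and COX1 from 32662, 34935 and 35089 to 50411, 53494 and 55205 (log2 difference 0.63, SE 0.04, adjusted p = 1.01e-05). ND6, the gene on the other strand of the mitochondrial genome, fell from 8109, 10598 and 10147 to 3398, 3485 and 3241 (log2 difference -1.50, SE 0.10, adjusted p = 5.21e-06). The other gene that fell was ND5.

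Most ribosomal protein genes were close to their tumour level, and genes of ribosome biogenesis mostly rose, nearly all by less than 2-fold. Of 32 cytoplasmic ribosomal proteins, 3 rose and 12 fell (5 and 8 after quantile normalization, 6 and 12 without tumour replicate 1). For 24 the interval lay within 0.5, against 22% of all genes (median -0.10, -0.17 without 2D replicate 1, -0.03 without 2D replicate 3). Rps3 fell most, from 18933, 18888 and 20658 to 13440, 11356 and 9541 (log2 difference -0.78, SE 0.11, adjusted p = 0.000537), and Rpl7 rose from 9564, 8909 and 9026 to 14073, 12908 and 12437 (log2 difference 0.52, SE 0.05, adjusted p = 7.78e-05); ribosomal proteins have many processed copies, so these values are uncertain. Of 22 genes of ribosome biogenesis and MYC targets, 15 rose and 1 fell (median 0.40). For 11 of them too the interval lay within 0.5, and only Nop58 was called and at least 2-fold higher. Npm1, nucleophosmin, went from 9051, 9786 and 10161 to 19279, 19789 and 18710 (log2 difference 1.00, SE 0.05, adjusted p = 1.23e-06) and Nop58, of the snoRNA complexes, from 298, 413 and 395 to 715, 829 and 686 (log2 difference 1.02, SE 0.14, adjusted p = 0.000456). The 1 that fell was Myc itself, from 3551, 3323 and 3133 to 2606, 2799 and 3116 (log2 difference -0.23, SE 0.08, adjusted p = 0.0288), a call lost in 4 of the 6 fits that left out 1 library (adjusted p up to 0.0927) and at equal sums (adjusted p = 0.0955). Of 22 proteasome genes 10 rose and 1 fell (none in 5 of the 6 fits that left out 1 library, all but that without tumour replicate 2; median 0.18, 0.12 without tumour replicate 3), with Psmd1 highest in fold, from 2440, 2617 and 2678 to 5418, 5896 and 5603 (log2 difference 1.13, SE 0.05, adjusted p = 9.4e-07).

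Stress genes showed no common direction. In the integrated stress response, 7 of 26 rose and 13 fell (median -0.16, -0.10 at equal sums). Its signalling genes fell, Ddit3, the factor CHOP, from 2895, 3034 and 3044 to 773, 789 and 739 (log2 difference -1.96, SE 0.05, adjusted p = 5.53e-08). Atf4 went from 10161, 10604 and 10567 to 6548, 6701 and 6393 (log2 difference -0.67, SE 0.04, adjusted p = 1.94e-06) and Trib3 from 2710, 2473 and 2754 to 897, 939 and 959 (log2 difference -1.50, SE 0.06, adjusted p = 4.41e-07). Genes of serine synthesis on the list rose, Psat1 from 3991, 3825 and 3332 to 7393, 6579 and 6393 (log2 difference 0.87, SE 0.08, adjusted p = 4.39e-05) and Phgdh from 4871, 4470 and 4577 to 7716, 7505 and 7652 (log2 difference 0.72, SE 0.04, adjusted p = 3.3e-06). Of 19 chaperones of the endoplasmic reticulum, 4 rose and 12 fell; Hspa5, BiP, fell from 23383, 21700 and 22032 to 16735, 15954 and 15965 (log2 difference -0.46, SE 0.04, adjusted p = 2.73e-05) and Canx, calnexin, rose from 12003, 13945 and 14762 to 22702, 23882 and 23934 (log2 difference 0.80, SE 0.07, adjusted p = 3.97e-05). Of 19 heat shock genes 11 rose and 6 fell (median 0.46). The mitochondrial chaperonin Hspd1 rose from 6535, 6217 and 6434 to 15322, 15525 and 14767 (log2 difference 1.25, SE 0.04, adjusted p = 8.47e-08), whereas the stress-induced Hspa1b fell from 405, 616 and 390 to 111, 72 and 66 (log2 difference -2.49, SE 0.26, adjusted p = 8.38e-05) and its partner Dnajb1 from 3227, 3128 and 3054 to 1059, 1016 and 1044 (log2 difference -1.59, SE 0.05, adjusted p = 9.15e-08). Hspa1b has a near-identical copy, and its value is uncertain.

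Among 26 genes of NRF2, iron and metallothioneins, 8 rose and 8 fell (5 after quantile normalization). These counts lie near the shares over all tested genes, 29.5% higher and 29.1% lower. The transferrin receptor Tfrc, which takes iron up, rose from 366, 433 and 444 to 2636, 2665 and 2577 (log2 difference 2.67, SE 0.08, adjusted p = 1.16e-07), and the ferritin chain Fth1, which stores it, fell from 22228, 22421 and 22733 to 7535, 7053 and 6758 (log2 difference -1.66, SE 0.04, adjusted p = 5.58e-08). Slc11a1, the iron and manganese transporter of phagosomes, fell from 1175, 1254 and 1045 to 6, 8 and 17 (log2 difference -6.79, SE 0.34, adjusted p = 1.59e-06). Hmox1, heme oxygenase, fell from 1752, 1775 and 1950 to 750, 782 and 700 (log2 difference -1.29, SE 0.07, adjusted p = 2.09e-06), while Gclc, of glutathione synthesis, rose from 434, 351 and 306 to 1102, 1087 and 1189 (log2 difference 1.64, SE 0.13, adjusted p = 1.66e-05). Of 17 genes of drug efflux and metabolism 7 rose and 4 fell (2 after quantile normalization). The efflux pump Abcg2 rose from 428, 419 and 337 to 1097, 1145 and 1167 (log2 difference 1.53, SE 0.10, adjusted p = 7.35e-06). Abcb1b went from 219, 248 and 142 to 427, 513 and 549 (log2 difference 1.32, SE 0.21, adjusted p = 0.0011), and Abcc3 fell from 1099, 1166 and 1130 to 20, 30 and 36 (log2 difference -5.29, SE 0.22, adjusted p = 5.33e-07). Of 19 positional genes, homeobox genes and the T-box genes Tbx15 and Tbx18, 6 rose (3 without 2D replicate 2 or 3, 9 after quantile normalization), 2 fell (1 without 2D replicate 2 or 3 or after quantile normalization) and 11 did not pass, with Tbx15 going from 286, 231 and 177 to 415, 433 and 490 (log2 difference 0.97, SE 0.18, adjusted p = 0.00221).

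To compare the dish with the gel, the 2D culture was set directly against the 3D bioink in a fit of all 9 libraries. Of 13773 genes tested there, 8148 (59.2%) were called, 4435 (32.2%) higher and 3713 (27%) lower in 2D culture; the groups did not overlap for 67.1%. The side with more calls turned at equal upper quartiles, with 3193 higher and 4813 lower, so the lists below were read against that scaling too. Bioink replicate 1 stood apart: across genes its lowest correlation with another bioink library was 0.933, against 0.965 between replicates 2 and 3 of the bioink. Leaving it out gave the counts added at the end of this comparison. Immediate early genes were lower in the dish than in the gel in 21 of 22 cases and higher in none, with a median log2 difference of -2.76 (-2.99 at equal upper quartiles, 0 higher and 21 lower). Fos stood at 695, 786 and 754 in 2D culture and 11772, 12927 and 12560 in the bioink (log2 difference -4.06, SE 0.06, adjusted p = 1.12e-10), Egr2 at 29, 38 and 37 and 741, 794 and 761 (log2 difference -4.43, SE 0.12, adjusted p = 6.79e-09), and Fosb at 39, 5 and 16 and 6523, 5897 and 6373 (log2 difference -8.61, SE 0.52, adjusted p = 5.67e-07). Fosl1, which did not pass against the tumours, stood at 640, 718 and 662 in the bioink. The labels record a digestion of 3 h before RNA isolation for the bioink and do not record one for the 2D culture, so gel and recorded digestion cannot be told apart.

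Cell cycle genes were higher in the dish than in the gel, 25 of 26 for S phase (24 at equal upper quartiles) and 22 of 26 for mitosis (20), with none lower in the S phase list. Rrm2 stood at 2687, 2573 and 2663 in 2D culture and 667, 662 and 700 in the bioink (log2 difference 1.96, SE 0.09, adjusted p = 9.18e-08), and Kif11 at 454, 444 and 459 and 302, 317 and 362 (log2 difference 0.47, SE 0.13, adjusted p = 0.0121). Ribosomal proteins were higher in 28 of 32 cases (24 at equal upper quartiles) and proteasome genes in 21 of 22 (21). Contractile genes were higher in 10 of 18 cases and lower in 1 (9 and 2), with Actn1 at 4374, 4428 and 4407 in 2D culture and 1389, 1762 and 1475 in the bioink (log2 difference 1.52, SE 0.08, adjusted p = 3.61e-07). Mitochondrially encoded genes were lower in 12 of 13 cases (12), and growth factors and receptors in 21 of 31 (21). Cholesterol genes, which rose against the tumours, were 8 higher and 13 lower against the bioink (4 and 17 at equal upper quartiles), with Hmgcs1 at 1057, 964 and 1001 in 2D culture and 2885, 2426 and 2575 in the bioink (log2 difference -1.38, SE 0.09, adjusted p = 7.56e-07).

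Some genes separated the 2 cultures by far. Lcn2, lipocalin 2 of reactive astrocytes, stood at 30, 20 and 19 in 2D culture, 13951, 11108 and 12465 in the bioink and 171, 186 and 206 in tumours (2D against bioink, log2 difference -9.05, SE 0.17, adjusted p = 7.12e-10). Mmp3, a stromal protease, stood at 13, 23 and 9, 5947, 5662 and 5861 and 6, 8 and 16 in the same order (log2 difference -8.60, SE 0.38, adjusted p = 1.02e-07), and Igfbp5 at 32, 25 and 30, 3850, 4121 and 3952 and 81, 50 and 70 (log2 difference -7.06, SE 0.19, adjusted p = 5.22e-09). Spp1, which rose against the tumours, stood at 23703, 25751 and 26429 in the bioink (log2 difference -3.54, SE 0.05, adjusted p = 1.28e-10). Going the other way, Krt19 stood at 199, 228 and 239 in 2D culture and 8, 14 and 18 in the bioink (log2 difference 4.02, SE 0.43, adjusted p = 2.76e-05), and Fbln2 at 8348, 8535 and 8932 and 1978, 2554 and 2444 (log2 difference 1.90, SE 0.40, adjusted p = 0.00254). Without bioink replicate 1, 21 immediate early genes were lower, 26 S phase and 22 mitosis genes were higher, 29 ribosomal protein genes were higher, 10 mitochondrially encoded genes were lower, and cholesterol genes were 9 higher and 13 lower. Microglia markers were low in either culture, with a summed level of 981 to 1087 in 2D culture and 1696 to 1783 in the bioink. Of 17 tested, 7 were lower in the dish and 0 higher (9 and 0 at equal upper quartiles). After quantile normalization 5 were lower and 2 higher. The mean of at least 10 was taken over all 9 libraries here, so some markers were tested only through the tumours. With only the 6 culture libraries, 9 were tested and 5 of these were lower.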

How the data were processed

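Bulk RNA of 3 libraries per group was sequenced with a directional kit. Per the submitters' processing notes, kallisto, RSEM, DESeq and DESeq2 (1.24.0) were used with mm10; their roles and order are not given in the sources used here. The deposited values are a score: counts that the authors normalized and rounded to whole numbers, so depth is unknown and no count model was used. Whether counting used strand is not stated. Values were taken as log2(value + 1). Genes averaging 10 or more across the 6 libraries were fitted with limma 3.58.1 (R 4.3.3, trended variance), and p-values were adjusted by Benjamini-Hochberg over all tested genes, with calls at 0.05. The 2D culture was set against the 3D bioink in a fit of 9 libraries. Groups came from the sample labels.

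Named genes were the 10 largest rises and falls with group means of at least 100 and 10, the 2 largest rises and falls of each list, the 10 most abundant genes within 0.5, and a fixed set of markers. Other genes named were chosen for their role after their values were seen, and some genes that the rule takes are not reported here. The members and lists were chosen with earlier results of these data known. Gene positions and promoters are from RefSeq (GRCm38.p6, the mm10 assembly). Alternatives were other added constants and filters, quantile, upper-quartile and sum scaling, a replicate block, a robust variance prior, all 9 libraries, and leaving out each library. The fit was tested on simulated data.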

Additional observations from a re-analysis of the deposited data

How the results depend on the processing

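The count of called genes was 7007 to 7678 when 1 library was left out, the count at least 2-fold apart 3108 to 3287, the count within 0.5 2457 to 2746, and the count for 2D culture against 3D bioink 7314 to 8003. All 59 alternative counts stayed within 1.5 times the reported ones. With the replicate number as a block, 7651 genes were called, 3275 were at least 2-fold apart, 2840 lay within 0.5 and 8039 were called against the 3D bioink. Deviations of same-numbered libraries correlated at 0.0123, 0.0272 and -0.00899, so the numbers were not taken to pair the libraries. Among the genes named in the text, the block ended the calls of Syn1 and Myc (adjusted p = 0.0882 and 0.0567 by limma) and brought Gm20594, Col4a1, Nfkb2 and Pacsin2 below 0.05 (adjusted p = 0.0453, 0.0258, 0.0363 and 0.0418). Over the genes named by rule or in the text, 5657 alternative values kept direction and side of the threshold, 73 lost the call, 42 gained one and 1 reversed, Eef1a1, at 0.017 after quantile normalization. The cause was not tested. Of the list medians, 770 moved by little and 142 by more. Depth is unknown, so no limit from counting can be given.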
